A study of Mus musculus with 4 samples.

Results

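Expression of 10 mouse counterparts of Alzheimer disease risk loci that act in endocytosis, lipid transport and signalling was examined in cultured mouse microglia. The 10 genes, out of 56832 listed in the count files, were taken by symbol: Bin1, Picalm, Cd2ap, Sorl1, Abi3, Abca7, Epha1, Ptk2b, Cass4 and Rin3. RNA was sequenced from 4 libraries of microglia of the C57BL/6 strain, the resident macrophages of the brain, which were sorted by flow cytometry after trypsin treatment of the culture. The series was designed around these cells, cultured blood stem and progenitor cells and co-cultures of such cells with glia; only the microglial libraries were analysed here, so no groups were compared. No genetic change or treatment is named in the labels, and the sources used here do not state the antibodies of the sort, the age of the mice or whether the replicates came from separate cultures. Every SD is therefore a spread between libraries and may be technical in origin.

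The libraries held 23212183 to 28469813 gene counts. All 12 microglial marker genes were at 1 CPM (counts scaled to the same total in each library) or more in every library, among them Sall1, the lowest, at 9.26 TPM ± 0.662 (SD, n = 4) and Csf1r at 2830 TPM ± 108; TPM are counts per unit of gene length, scaled to the same sum in each library. The microglial markers summed to 20163 to 21777 TPM per library, beside 247 to 411 TPM for 10 astrocyte markers, 165 to 180.3 TPM for 10 oligodendrocyte lineage markers, 99.1 to 156 TPM for 8 mural and fibroblast markers, 35.5 to 46.1 TPM for 8 endothelial markers, 3.66 to 7.12 TPM for 8 neuron markers, 1.87 to 2.80 TPM for 6 epithelial markers and 0.772 to 1.58 TPM for 8 lymphocyte markers. Clu led the astrocyte list, Cnp (99.3 TPM ± 3.08) the oligodendrocyte lineage list, Acta2 the mural list and Flt1 (18.1 TPM ± 0.839) the endothelial list. Within these lists some defining genes were at 0 counts, Mog of oligodendrocytes, Snap25 of neurons and Tek and Emcn of endothelium, as were the lymphocyte genes Cd3d, Cd8a and Ncr1. Other genes of these lists were present, such as Gfap (50.3 TPM ± 14.2) of astrocytes, Mbp (43.9 TPM ± 2.11) of oligodendrocytes and Slco1a4 (15.6 TPM ± 3.30) of endothelium. At 1 CPM or more in every library were 9 of 10 astrocyte and 6 of 8 mural and fibroblast markers. So were 5 of 10 oligodendrocyte lineage, 3 of 8 endothelial, 1 of 8 neuron, 1 of 6 epithelial and 0 of 8 lymphocyte markers. Over all protein-coding genes the share was 51.8%. The labels give the sex as female, yet the Y-linked gene Ddx3y was at 30.03 to 41.5 CPM beside Xist at 253 to 341 CPM, so the libraries go against that label.

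Endocytosis carries receptors and their cargo from the cell surface into vesicles, which then mature, recycle or deliver their cargo to lysosomes. Clathrin adaptors such as PICALM and membrane-bending proteins such as BIN1 act at the first steps, RAB5 activators such as RIN3 act on early endosomes, and the sorting receptor SORL1 moves cargo, the amyloid precursor protein included, between endosomes and the Golgi. The other genes act on actin and adhesion (ABI3, CD2AP, PTK2B, CASS4), on lipid export (ABCA7) and on signalling by ephrins (EPHA1). In microglia these routes serve the uptake and breakdown of debris and aggregates.

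Of the 10 genes, 8 were at 1 CPM or more in every library, beside 51.8% of all protein-coding genes. Mean TPM spanned Bin1 at 244 to Epha1 at 0.0183. Bin1, Ptk2b and Picalm exceeded 100 TPM, Rin3, Abca7, Abi3, Sorl1 and Cd2ap lay between 10 and 100 TPM, and Cass4 and Epha1 lay below 1 TPM. The median of the 10 genes was 46.1 TPM ± 1.86 (SD, n = 4), beside 17.9 TPM ± 0.184 over all genes tested for spread and 1.68 TPM ± 0.123 over all protein-coding genes. These are bulk libraries, in which fewer cells expressing a gene and less RNA per cell cannot be told apart.

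**Figure D1:**
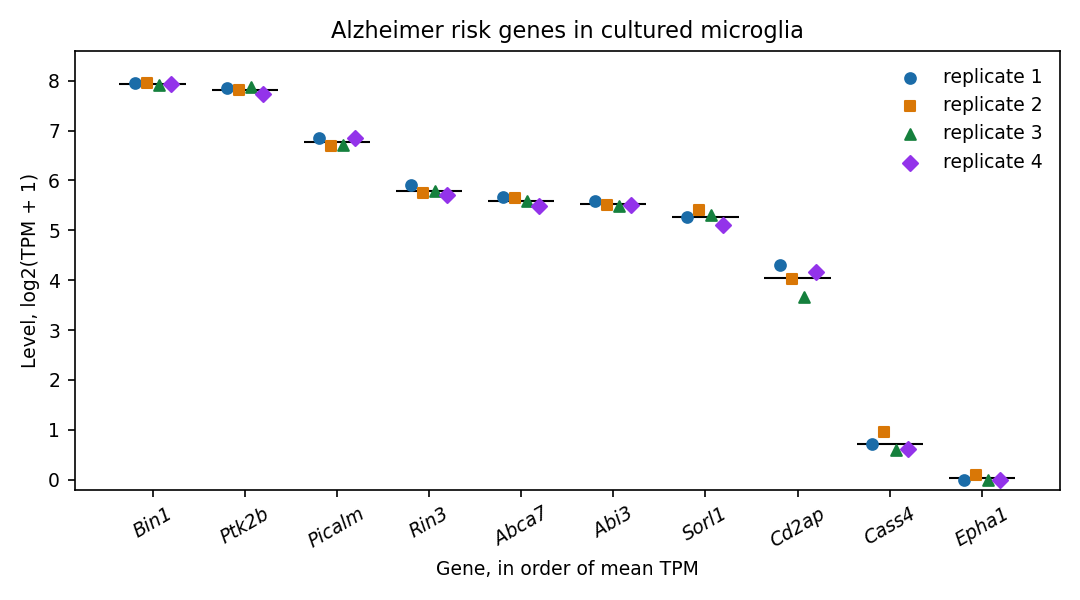
Level of each risk gene, as log2(TPM + 1), in the 4 libraries, with genes in order of mean TPM; points are libraries and black lines are means of the 4 points. Bin1 and Ptk2b sit at the top, Cass4 and Epha1 at the bottom, and the 4 points lie farther apart for Cd2ap than for the other genes above 10 TPM.

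Neighbours in this order were compared within each library, and a difference was taken as beyond the spread when it had the same sign in all 4 libraries and its mean was at least 2 SD. Bin1 and Ptk2b did not differ beyond their spread (difference 0.11 ± 0.0679 on the log2(TPM + 1) scale), though Bin1 was above in 4 of 4 libraries. Nor did Abca7 and Abi3 (0.07 ± 0.0730, with Abca7 above in 3 of 4 libraries) or Abi3 and Sorl1 (0.25 ± 0.136, with Abi3 above in 4 of 4). Ptk2b lay above Picalm by 1.05 ± 0.129, Picalm above Rin3 by 0.98 ± 0.105, Rin3 above Abca7 by 0.20 ± 0.0646 and Sorl1 above Cd2ap by 1.23 ± 0.333. Cd2ap lay above Cass4 by 3.32 ± 0.289 and Cass4 above Epha1 by 0.70 ± 0.118. The order rests on the gene length used: with the longest transcript in place of all merged exons Ptk2b came first, at 313 TPM ± 13.04, above Bin1 at 283 TPM ± 5.31, and Cd2ap (33.5 TPM ± 6.36) came above Sorl1 (30.1 TPM ± 2.60). With only the exon bases outside other genes Abi3 came after Bin1 and Ptk2b, at 185 TPM ± 6.50, above Picalm, Rin3, Abca7 (47.4 TPM) and Sorl1 (38.2 TPM). On CPM, without length, Picalm came first.

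**Figure D2:**
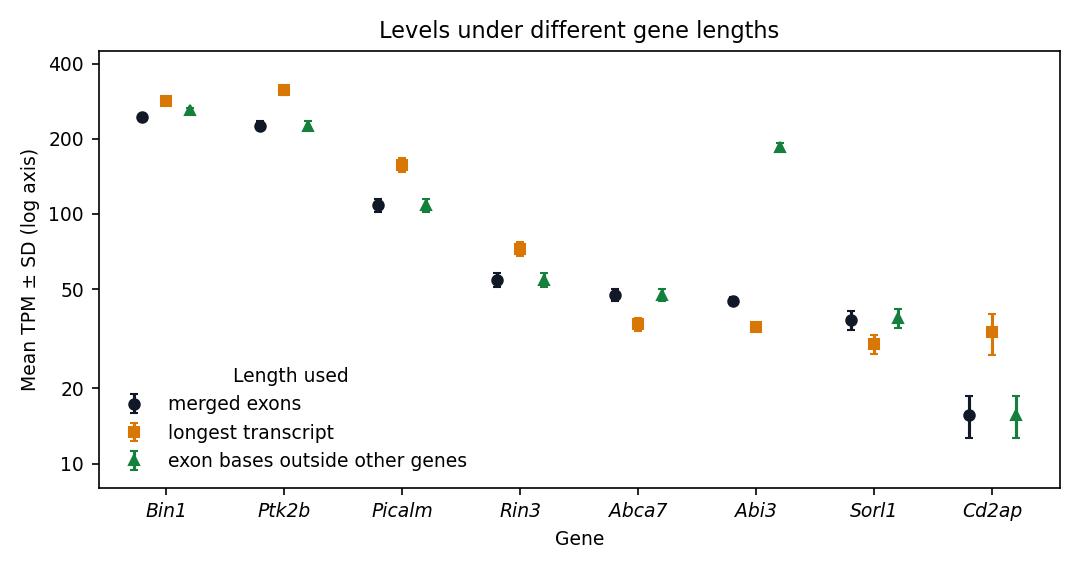
Mean TPM ± SD (n = 4, log axis) of the 8 genes above 10 TPM with 3 definitions of gene length. Abi3 moves most, to 185 TPM with the exon bases outside other genes, and Cd2ap moves to 33.5 TPM with the longest transcript.

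RefSeq (GRCm38.p6) windows were matched for 7 of the 10 genes, Cass4, Epha1, Picalm, Sorl1, Abca7, Rin3 and Cd2ap. Of the 5 genes with 1 window, the 2 highest and the 2 lowest in TPM are printed below, as the 250 bases before the start, 5′ to 3′ on the gene's strand. Capitals mark GAGGAA, a short form of the purine-rich element that the myeloid factor PU.1 recognises, searched on both strands as GAGGAA and TTCCTC.
Picalm: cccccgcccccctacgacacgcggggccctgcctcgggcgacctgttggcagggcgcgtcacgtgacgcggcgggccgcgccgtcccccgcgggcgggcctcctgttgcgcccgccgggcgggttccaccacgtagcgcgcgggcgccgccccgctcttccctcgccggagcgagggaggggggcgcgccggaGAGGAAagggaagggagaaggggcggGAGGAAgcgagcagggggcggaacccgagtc
Abca7: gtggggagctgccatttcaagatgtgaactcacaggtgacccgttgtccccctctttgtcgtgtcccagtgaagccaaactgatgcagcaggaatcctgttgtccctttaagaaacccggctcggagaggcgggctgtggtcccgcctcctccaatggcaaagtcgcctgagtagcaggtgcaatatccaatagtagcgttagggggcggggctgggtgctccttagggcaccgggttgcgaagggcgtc
Cass4: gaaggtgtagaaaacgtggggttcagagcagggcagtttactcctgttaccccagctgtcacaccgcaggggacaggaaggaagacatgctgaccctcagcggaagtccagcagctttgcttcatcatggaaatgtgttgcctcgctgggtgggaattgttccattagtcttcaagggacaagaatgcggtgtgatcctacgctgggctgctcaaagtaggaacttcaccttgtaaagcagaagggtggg
Epha1: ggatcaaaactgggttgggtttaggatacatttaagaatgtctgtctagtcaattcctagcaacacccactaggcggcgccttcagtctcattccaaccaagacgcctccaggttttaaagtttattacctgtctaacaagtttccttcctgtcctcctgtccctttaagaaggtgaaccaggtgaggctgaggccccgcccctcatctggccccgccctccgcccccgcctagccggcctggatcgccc
The Picalm window (chr7:90129963-90130212, + strand) was 79.2% G and C with 39 CpG dinucleotides and held 2 matches, starting 57 and 31 bases before the start. The Abca7 window (chr10:79996244-79996493, + strand) had 12 CpG dinucleotides, the Epha1 window (chr6:42373269-42373518, - strand) 9 and the Cass4 window (chr2:172393394-172393643, + strand) 6, and none of these 3 held a match. The Cass4 window ends upstream of the GENCODE M21 gene start, 172393794. The bases that follow it were not found in an annotated Cass4 transcript, while those after the other printed windows were found in transcripts of their genes. The median over all 32851 windows of the table was 6 CpG dinucleotides, and 23.3% of windows held the motif. A match is a string of letters, not evidence of binding, and no match says only that these letters are absent from the window.

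Among the genes of the endocytic step itself, Bin1 encodes an amphiphysin-family protein whose BAR domain senses and bends membranes. It lies at chr18:32377230-32435737 (GRCm38, + strand). Bin1 was at 247, 248, 239 and 242 TPM in replicates 1 to 4, with 6753 to 8418 counts, and these 4 values had the smallest spread of the tested members (coefficient of variation of CPM, 1.55%). Its mean was above that of 97.2% of protein-coding genes. The related gene Bin2, known from blood cells, was at 331, 277, 303 and 314 TPM, higher than Bin1 in every library. The Bin1 minus Bin2 difference was -0.33 ± 0.115 (log2(TPM + 1), SD, n = 4; exact permutation test that flips signs over the libraries, two-sided, p = 0.125, which is the lowest possible with 4, and 0.125 adjusted over the 10 such pairs). Its direction depends on length: it was 0.37 on CPM, without length, and -0.02 with the longest transcript. Bin1 took 38.8% ± 1.78 of the summed TPM of the 4 genes Bin1, Bin2, Bin3 and Amph; Bin3 was at 79.1 TPM ± 5.88 and Amph, the amphiphysin of neurons, at 0.204 TPM ± 0.115.

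Picalm encodes a clathrin assembly protein that binds membrane lipids, clathrin and the adaptor complex AP2. The gene lies at chr7:90130213-90213465 (GRCm38, + strand). It was at 114, 102, 103 and 114 TPM in replicates 1 to 4, so that replicates 1 and 4 were above replicates 2 and 3. Its neuronal relative Snap91, which encodes AP180, had 0, 11, 1 and 14 counts in replicates 1 to 4. Picalm took 99.9% ± 0.0910 of the TPM of this gene pair, and the Picalm minus Snap91 difference was 6.65 ± 0.166 (exact permutation p = 0.125; adjusted p = 0.125). Its size depends on the pseudocount because Snap91 is near 0, and was 3.55 with a pseudocount of 10.

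Cd2ap encodes an adaptor with SH3 domains that links receptors and endocytic sites to actin, and was first known for its role in T cells and kidney podocytes. It lies at chr17:42792951-42876665 (GRCm38, - strand). Cd2ap was at 18.6, 15.3, 11.7 and 17.0 TPM in replicates 1 to 4, from 2319, 1680, 1278 and 2279 counts. Replicate 3 was lowest and replicate 1 highest. The close relative Sh3kbp1, which encodes CIN85, was at 43.6, 41.3, 39.7 and 43.8 TPM, above Cd2ap in every library. The Cd2ap minus Sh3kbp1 difference was -1.39 ± 0.208 (exact permutation p = 0.125; adjusted p = 0.125), and it was -0.40 with the longest transcript as length and -0.79 on CPM. Cd2ap took 26.9% ± 2.998 of the TPM of both genes.

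The clathrin machinery works beside these proteins. Of 30 genes of the clathrin coat, its adaptors and vesicle scission, 26 were at 1 CPM or more in every library, with a list median of 49.9 TPM ± 2.30. Clathrin light chain Clta was at 869 TPM ± 15.3, heavy chain Cltc at 516 ± 40.6 and epsin Epn1 at 490 ± 19.8, while the endophilin gene Sh3gl2, known from neurons, had 3 counts in all.

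Rin3 encodes an exchange factor that activates RAB5-family GTPases. The gene lies at chr12:102283048-102390855 (GRCm38, + strand). It was at 59.4, 52.7, 54.3 and 51.3 TPM in replicates 1 to 4, with replicate 1 highest and replicate 4 lowest. Rin2, a second member of the family, was higher in every library, at 79.8, 74.6, 74.2 and 81.9 TPM. The Rin3 minus Rin2 difference was -0.51 ± 0.111 (exact permutation p = 0.125; adjusted p = 0.125), and it was -0.97 with the longest transcript and -1.23 on CPM. The family was shared among 3 genes: Rin3 took 27.7% ± 1.57 of its TPM, Rin2 39.4% ± 1.505 and Rinl 32.4% ± 1.79, while Rin1 was at 1.02 TPM ± 0.196. All 16 genes of the RAB5 cycle were at 1 CPM or more in every library, led by Rab5c (672 TPM ± 23.7), Rab31 (233 ± 4.19), a RIN3 substrate, and Rab5b (169 ± 6.30); Appl1, an effector on early endosomes, was lowest at 14.00 ± 1.93.

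Sorl1, the sorting receptor of the VPS10 family, lies at chr9:41964720-42124297 (GRCm38, - strand). It was at 37.6, 41.1, 38.3 and 33.3 TPM in replicates 1 to 4, highest in replicate 2 and lowest in replicate 4. Sortilin, encoded by Sort1, was at 64.4, 65.3, 63.1 and 64.4 TPM, above Sorl1 in every library. The Sorl1 minus Sort1 difference was -0.76 ± 0.121 (exact permutation p = 0.125; adjusted p = 0.125), and it was -0.20 on CPM, without length. Sorl1 took 36.1% ± 1.93 of the family's TPM. Sorcs1 and Sorcs2 were at 0.723 ± 0.191 and 1.24 ± 0.278 TPM, and Sorcs3 had 0 counts throughout, compatible with at most 0.129 CPM in a library (3 counts; counting error only). All 18 genes of the retromer, the GGA adaptors and the sorting nexins were at 1 CPM or more, with Rab7 (608 TPM ± 7.98), Snx3 (404 ± 11.7) and Snx5 (358 ± 24.6) highest and the adaptor Gga2 (17.4 ± 0.764) lowest.

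Abca7, a lipid transporter of the ATP-binding cassette family, lies at chr10:79996494-80015572 (GRCm38, + strand). It was at 49.7, 48.9, 47.2 and 43.6 TPM in replicates 1 to 4, lowest in replicate 4. Abca1, the main exporter of cholesterol to apolipoproteins, was at 660, 613, 553 and 610 TPM. The Abca7 mean was 0.0778 times the Abca1 mean. The Abca7 minus Abca1 difference was -3.66 ± 0.108 (exact permutation p = 0.125; adjusted p = 0.125). Abca1 took 73.6% ± 0.845 of the TPM of the 12 genes of the family, and Abca7 took 5.74% ± 0.373. Abca9 (61.5 TPM ± 5.75), Abca3 (54.98 ± 2.38) and Abca2 (51.3 ± 3.35) were near Abca7 in level, and Abca12 had 0 counts.

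Abi3 encodes an Abelson interactor that joins the WAVE complex, which drives branched actin growth. It lies at chr11:95830074-95842476 (GRCm38, - strand). Its counts of 1539, 1279, 1243 and 1564 gave 47.2, 44.4, 43.6 and 44.5 TPM in replicates 1 to 4. Abi1, the widely expressed member, was at 167, 143, 147 and 154 TPM. The Abi3 minus Abi1 difference was -1.74 ± 0.0588 (exact permutation p = 0.125; adjusted p = 0.125). Its direction depends on how reads on overlapping genes were counted. In GENCODE M21, 75.8% of the exon bases of Abi3 are covered by exons of Gngt2, Phospho1 and Zfp652 on the other strand, beside 4.81% for Abi1. With the uncovered bases as length, which would apply if reads on shared bases were dropped, Abi3 was at 185 TPM ± 6.50 and Abi1 at 160.3 TPM ± 11.02, a difference of 0.21. Gngt2 had 7847 counts, Zfp652 17947 and Phospho1 47 over the 4 libraries. Abi2 was at 8.61 TPM ± 0.549.

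ABI3 acts with the WAVE complex, RAC and the branched-actin machinery. Of 16 such genes, 15 were at 1 CPM or more in every library, with a list median of 223 TPM ± 9.06. Arpc2 of the ARP2/3 complex was at 1188 TPM ± 26.9, Nckap1l, the blood-cell subunit known as HEM1, at 714 ± 23.04 and Actr3 at 585 ± 41.2. Wasf1, the WAVE gene known from brain, had 20 counts in all.

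**Figure D3:**
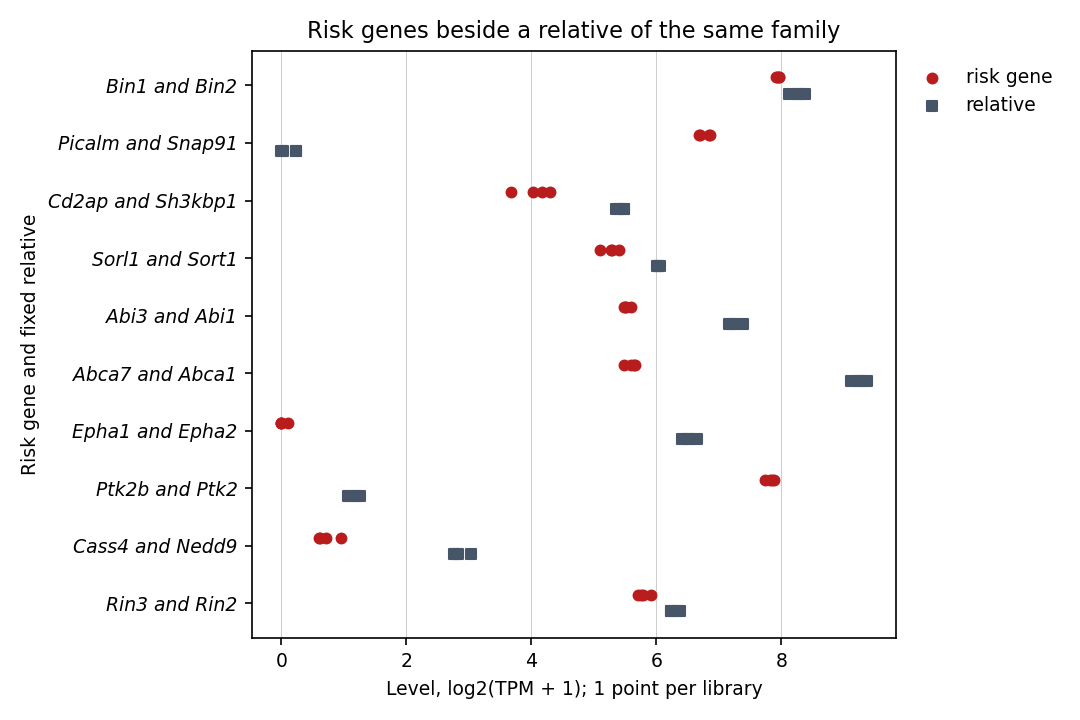
Levels, as log2(TPM + 1), of each risk gene (circles) and of 1 relative of its family (squares), with 1 point per library. The points of a pair do not overlap in any of the 10 pairs. The risk gene is above its relative for Picalm and Ptk2b and below it for the other 8. This direction flips for Bin1 without gene length and for Abi3 with the exon bases outside other genes. For these 8 the relative was the highest gene of its family list by mean TPM, so the direction follows from the choice of relative. Bin1 lay above Bin3 and Amph, Abi3 above Abi2, Rin3 above Rin1 and Sorl1 above Sorcs1, Sorcs2 and Sorcs3. Cass4 was the lowest gene of its list.

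Ptk2b encodes PYK2, a cytosolic tyrosine kinase related to focal adhesion kinase and activated by calcium and integrins. It lies at chr14:66153257-66281052 (GRCm38, - strand). The gene was at 230, 224, 234 and 213 TPM in replicates 1 to 4, above 96.9% of protein-coding genes by its mean. Ptk2, which encodes focal adhesion kinase itself, was at 1.39, 1.099, 1.32 and 1.15 TPM, from 129, 90, 107 and 115 counts. The mean of Ptk2b was 182 times that of Ptk2, and the Ptk2b minus Ptk2 difference was 6.66 ± 0.0646 (exact permutation p = 0.125; adjusted p = 0.125), and 4.39 with a pseudocount of 10. Ptk2b took 99.5% ± 0.0473 of the TPM of both genes.

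Cass4 encodes a scaffold of the CAS family, whose members are docking proteins for focal adhesion kinases and SRC. It lies at chr2:172393794-172433757 (GRCm38, + strand). It had 27, 35, 19 and 24 counts in replicates 1 to 4, or 0.9995, 1.49, 0.819 and 0.843 CPM. Replicate 2 was highest, and the exact Poisson 95% intervals (counting error only) of the 4 libraries overlapped, running over 1.04 to 2.08 CPM in replicate 2 and over 0.493 to 1.28 CPM in replicate 3. The gene passed the low-count filter but not the test of spread (edgeR adjusted p = 0.9999). An antisense gene, Gm14455, covers 21.2% of its exon bases and had 7 counts in all. Nedd9 was the highest CAS gene, at 6.07, 5.79, 7.21 and 5.83 TPM, and Bcar1, which encodes p130CAS, was at 3.11 TPM ± 0.384. The Cass4 minus Nedd9 difference was -2.12 ± 0.259 (exact permutation p = 0.125; adjusted p = 0.125), and it was -0.61 with a pseudocount of 10. Cass4 took 6.19% ± 1.88 of the family's TPM, close to Efs at 6.96% ± 4.47.

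Of 20 genes of adhesion kinase signalling, 19 were at 1 CPM or more in every library. The integrin chains Itgb2 (678 TPM ± 33.1) and Itgb1 (526 ± 19.2) and the exchange factor Vav1 (501 ± 11.2) were highest, and the SRC-family kinase Fgr (0.835 ± 0.255) was lowest.

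Epha1, a receptor tyrosine kinase for ephrin-A ligands, lies at chr6:42358487-42373268 (GRCm38, - strand). It had 0, 2, 0 and 0 counts in replicates 1 to 4. Over the 4 libraries together this is 0.0196 CPM, with an exact Poisson 95% interval of 0.00237 to 0.0707 CPM that covers counting error only. Exons of Zyx on the other strand cover 6.01% of its exon bases, and Zyx had 11483 counts. Epha2 was at 99.9, 90.2, 90.997 and 84.3 TPM and took 92.0% ± 1.48 of the TPM of the 14 Eph receptor genes. The Epha1 minus Epha2 difference was -6.50 ± 0.116 (exact permutation p = 0.125; adjusted p = 0.125), and because Epha1 is at the floor this size depends on the pseudocount, being -3.34 with a pseudocount of 10. Among the other receptors Ephb3 (1.95 TPM ± 0.360) and Ephb6 (1.85 ± 0.426) were highest, and Epha8 and Epha10 had 0 counts. Ligand genes were also low: of 8 ephrins, 2 were at 1 CPM or more in every library, Efnb1 at 13.3 TPM ± 1.92 and Efnb2 at 1.52 ± 0.314. The ephrin-A gene Efna4 had a mean of 1.785 TPM ± 1.04, but was at 0.176 CPM in replicate 4.

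**Figure D4:**
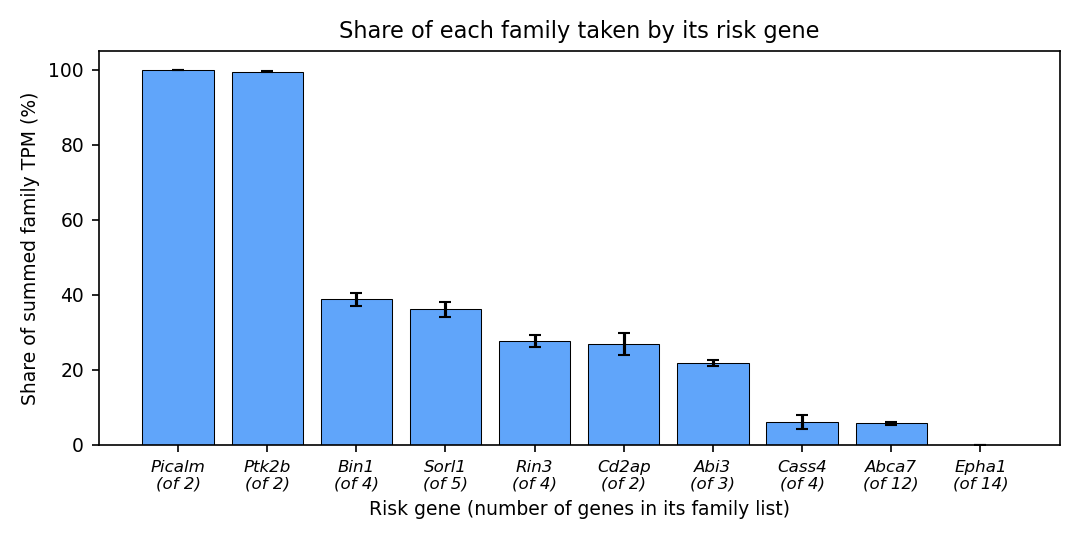
Share (%) of the summed TPM of each family that its risk gene took, mean ± SD over 4 libraries; the number of genes in the family list is under each name. Shares run over 99.9% for Picalm and 99.5% for Ptk2b to 0.0186% for Epha1; the share of Abi3 was computed with all merged exons.

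The replicate libraries were then compared with each other. Of the 10 genes, 9 passed the low-count filter, Epha1 being the exception. Cd2ap alone among these 9 varied between libraries more than genes of like abundance (edgeR deviance test with the trended dispersion, adjusted p = 0.027), beside 1.11% of the 12879 genes tested. Cd2ap was at 85.9, 71.7, 55.1 and 80.05 CPM in replicates 1 to 4, so that replicate 1 was 1.56 times replicate 3. Its SD of log2 CPM was 0.30, above that of 98.6% of the 2291 tested genes whose mean CPM was within 1.5 times its own. The call was lost without replicate 3 (edgeR adjusted p = 0.99998), without replicate 1 (0.060), without replicate 4 (0.061) and with a common dispersion (0.16), so it rests on the low value of replicate 3 and lies near the threshold.

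The other 7 genes above 10 TPM had SDs of log2 CPM of 0.03 to 0.12, and their lowest unadjusted p was 0.23 (edgeR deviance test). The median SD over all genes tested was 0.13, but it covers genes of far lower counts, such as Cass4 (0.41), and is not matched on abundance. Median SDs were 0.060 to 0.077 in the clathrin, retromer, RAB5, WAVE and adhesion lists read below, beside 0.089 over the 9 tested risk genes. On TMM-scaled CPM, 5 of the 9 tested were lowest in replicate 3 and 4 in replicate 4, beside 25.1% and 21.7% of all tested genes. Picalm was among the 5 by a small gap, at 472.94 in replicate 3 and 473.96 in replicate 2. On CPM without this scaling and on TPM, Picalm was lowest in replicate 2. The 3 genes most like Cd2ap in their deviations over the 4 libraries, among 8546 genes at a mean of 10 CPM or more, were Chm, mt-Rnr2 and Dnm1l, with root mean square differences of 0.0125, 0.0127 and 0.0222 on the log2 scale. They were picked for this likeness, so the shared pattern follows from the choice and is no evidence of a link. Chm, which encodes a RAB escort protein, was at 30.3, 24.9, 19.1 and 27.6 CPM in replicates 1 to 4 and did not pass the test of spread (edgeR adjusted p = 0.29). The mitochondrial ribosomal RNA mt-Rnr2 was at 254, 217, 163 and 240.1 CPM (edgeR adjusted p = 0.0014), and Dnm1l, a dynamin-related gene of mitochondrial fission, at 46.8, 39.7, 30.9 and 43.2 CPM without passing it (edgeR adjusted p = 0.21).

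**Figure D5:**
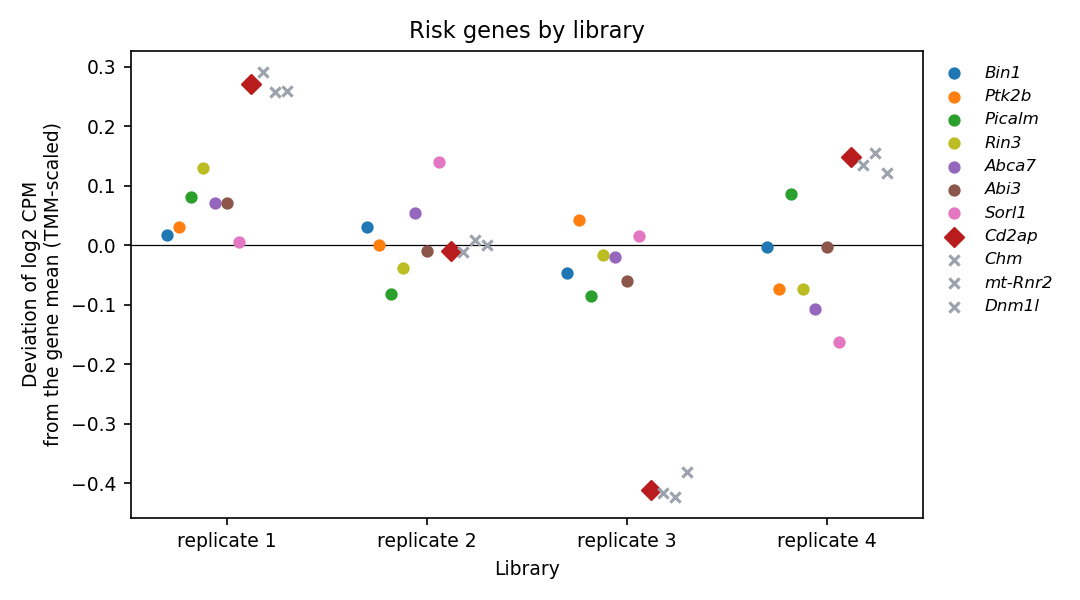
Deviation of TMM-scaled log2 CPM from the gene's mean in each library, for the 8 risk genes above 10 TPM and the 3 genes most like Cd2ap. Cd2ap (red diamonds) is at the top in replicate 1 and at the bottom in replicate 3 with Chm, mt-Rnr2 and Dnm1l (grey crosses), while the other risk genes stay nearer to 0. The grey crosses were picked for their likeness to Cd2ap.

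Other measures also differed between the libraries, in several cases in another order than Cd2ap, and their part in its spread was not tested. Mitochondrially encoded genes took 1.23%, 1.07%, 0.900% and 1.24% of counts in replicates 1 to 4, lowest in replicate 3 like Cd2ap. The 10 astrocyte markers summed to 247, 380, 411 and 331 TPM, with replicate 3 highest and replicate 1 lowest, none of them at 0 over all libraries, and Clu, Gfap and Aqp4 highest; 3 of the 9 tested passed the test of spread. The 8 mural and fibroblast markers summed to 99.1, 128, 156 and 103 TPM, also highest in replicate 3 and lowest in replicate 1. Immediate-early genes, a list of 15, summed to 2624, 1487, 1857 and 1461 TPM, highest in replicate 1 and lowest in replicate 4, and 12 of the 15 passed. Of the 12 microglial markers 1 passed, the purinergic receptor gene P2ry12, which was at 236, 185, 164 and 248.8 CPM. The share passing over all 12879 genes tested was 1.11%.

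The same test was read for the pathway lists. In the lists of the clathrin machinery (26 tested), the retromer and sorting nexins (18), the RAB5 cycle (16), the WAVE complex (15) and adhesion kinase signalling (20), 0 genes passed the edgeR test of spread. Over all genes tested 1.11% passed, so 0 in lists of these sizes is near that share. At an unadjusted p under 0.05 there was 1 gene each in 3 of these lists: Fcho2, a nucleator of clathrin pits, was at 129, 110, 90.1 and 118 CPM (unadjusted p = 0.0023, adjusted p = 0.13), Eea1, the early endosome tether, at 91.2, 74.6, 66.04 and 81.6 CPM, and the actin-capping gene Capza2 at 324, 260.3, 272 and 311 CPM, beside 6.79% of all genes tested.

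The risk genes of endocytosis and signalling were lower as a set than 17 risk genes of immune and lipid function listed beside them. The medians were 46.1 TPM ± 1.86 and 329 TPM ± 13.2, a difference of -2.81 ± 0.0188 on the log2(TPM + 1) scale, which is given without a test because the members were chosen. The second list was led by Apoe, Tyrobp and Ctsb, and its lowest gene was Treml2, at 0.594 TPM ± 0.309. None of its 14 tested genes passed the edgeR test of spread, at an adjusted or at an unadjusted p under 0.05. Over all genes tested these shares were 1.11% and 6.79%, and in so short a list 0 is near them.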

How the data were processed

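The authors deposited raw read counts per gene symbol, 1 file per library, made with STAR 2.7.10a, SAMtools 1.16.1 and HTSeq 0.11.2 on mm39 (GRCm39), per the submitters' processing notes. The sources used here do not name the annotation release, strand setting or overlap mode. The 5 summary lines (11.8% ± 0.159 of reads) were left out, and 0 columns belonged to no sample. CPM and TPM were computed here; lengths were merged exons of GENCODE M21 (GRCm38), matched by symbol for 97.1% of tested genes, so gene positions are on GRCm38. A count of 0 allows 3 counts, or 0.105 to 0.129 CPM.

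Spread between libraries was tested in edgeR 4.0.16 (R 4.3.3) with 1 mean per gene, TMM scaling, filterByExpr, trended dispersion, a chi-square of the deviance with 3 degrees of freedom and Benjamini-Hochberg adjustment over all genes, threshold 0.05. Pairs of relatives were compared within libraries by exact two-sided sign-flip permutation tests on log2(TPM + 1). The spread test was checked on simulated data and the sign-flip test on cases with known p-values. Alternatives used DESeq2 1.42.0, other lengths, pseudocounts and filters, and left out each replicate.

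Members, lists and pairs were chosen with earlier results of these data known. Named were all members and relatives, the 3 highest and the lowest gene of each list, genes past the spread test and the 3 genes most like Cd2ap; genes tied to overlaps, genes at 0 and those with an unadjusted p under 0.05 were named after their values were seen. Some genes that this rule takes are not reported here. The older symbol of 1 listed gene was matched.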

Additional observations from a re-analysis of the deposited data

Results flagged for a closer look

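Among the CPM values of the 10 genes and the 10 differences between relatives, 1 set of 4 libraries had a value far from the others. Epha1 had 2 counts in replicate 2 and 0 in the rest, so the gap of the highest library to the nearest was the whole range (gap over range, 1). At such counts this is 2 reads. Chance alone marks about 1 in 20 groups of continuous values, and that rate does not apply to counts this low.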

How the results depend on the processing

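No paired analysis was possible because there was 1 group only, so that replicate numbers had no second group to pair with; relatives were compared within each library. The spread test called 143 genes, 1 of them a risk gene (Cd2ap); a common dispersion called 532 and 0, and DESeq2's dispersion outliers were 69 and 0. Leaving out 1 replicate at a time gave 47 (without replicate 1) to 118 genes and 0 to 1 risk genes; without replicate 3 the count was 52. The cause was not tested. DESeq2 size factors gave 143 genes and no filter gave 154, each with Cd2ap. Of the 10 differences between relatives, 8 kept their direction under every setting run; Bin1 minus Bin2 was 0.37 on CPM with no length, where the shorter exon length of Bin2 is not counted, and Abi3 minus Abi1 was 0.21 with the exon bases outside other genes, an alternative chosen after seeing the data. The Epha1 pair gave no value when both genes needed 10 counts in at least 1 library. The count of 8 risk genes at 1 CPM in every library was within 1.5 times under all scalings, a threshold of 0.5 CPM and each left-out replicate. Depth limits Epha1 and Cass4, and 4 libraries cannot give a sign-flip p below 0.125.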
